A study of Homo sapiens with 41 samples.

Results

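The response of LX-2 cells to thapsigargin was read from 4 RNA libraries, 2 of cells labelled Tg and 2 of cells labelled DMSO, all carrying the control hairpin shCtrl. They were chosen by these labels alone, out of 41 samples in the series (32 RNA libraries and 9 ChIP or input samples, the 9 not analysed here). LX-2 is an immortalised human line of hepatic stellate cells, and thapsigargin was set against its vehicle DMSO. The labels give neither a dose nor a duration, and nothing says that libraries came from separate cultures. The p-values thus rest on a spread between libraries, pooled over groups as stated below, which may be technical. Libraries of 3 other kinds are used below for comparison: shCtrl LX-2 under the condition labelled AA_Dep (2 libraries), read here as amino acid deprivation, LX-2 with a hairpin against ATF4 (shATF4) under Tg and DMSO (4 libraries), and shCtrl HMLE, a mammary epithelial line, under Tg and DMSO (4 libraries). The spread between libraries was estimated over all 16 LX-2 libraries, which also hold TGFbeta libraries of both hairpins and AA_Dep libraries of shATF4 cells, and for the comparison of lines over 31 libraries, which add HMLE of both hairpins under Tg, DMSO, AA_Dep and Twist_OE.

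Thapsigargin blocks the SERCA pumps that load calcium into the endoplasmic reticulum (ER). Without that calcium, ER chaperones fail to fold their clients and the unfolded protein response starts through the sensors IRE1, PERK and ATF6. ATF6 and the spliced form of XBP1 turn on genes for chaperones and for the disposal of misfolded proteins. PERK phosphorylates eIF2alpha, which slows translation in general and favours that of the transcription factor ATF4, so that genes of amino acid supply, of feedback and of cell death follow. Hepatic stellate cells load the ER heavily because they secrete collagens and other matrix proteins, and in liver fibrosis they are the main source of scar matrix.

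The DMSO cells looked like stellate cells. All 16 stellate and fibroblast markers had counts in both DMSO libraries, with a summed level of 15592 and 15168 CPM after TMM scaling (normalised CPM, used for every level below). In Tg libraries the sums were 4306 and 6953, with the falls described further on. Fewer cells of a type and less RNA per cell cannot be told apart in bulk RNA. Of 20 mammary epithelial markers, 7 and 10 had no counts in Tg libraries and 4 and 7 had none in DMSO libraries, so most had some in DMSO. KRT5 and KRT6A had no counts in any of the 4 libraries, against more than 1000 normalised CPM in HMLE. The list summed to 84.2 and 214 in Tg libraries against 181 and 203 in DMSO libraries. Hepatocyte markers summed to 7.10 and 9.18 in Tg libraries against 4.15 and 5.72 in DMSO libraries, with ALB, APOB and TTR at 0 in all 4. Leukocyte markers summed to 3.34 and 9.29 against 14.5 and 19.6. Of these 12 markers 5 and 8 had no counts in Tg libraries and 5 had none in each DMSO library, with CD3E and LYZ at 0 in all 4. Endothelial markers summed to 112 and 78.2 against 93.6 and 101, most of it TIE1. Their part in the results was not tested.

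Tg replicate 2 stood apart from every other LX-2 library. It held counts for 15840 genes, against 24036 in Tg replicate 1 and 22912 to 24255 over the other 15 LX-2 libraries, although its total of 15247910 counts lay within their range of 14551191 to 18776430. Only 205 of its genes had a single count, against 2383 to 2851 elsewhere, and its 100 most abundant genes took 26.7% of counts, against at most 21.2%. Mitochondrially encoded genes took 0.154% of its counts (2.04% to 3.14% elsewhere) and ribosomal protein genes 11.5% (2.75% to 4.44% elsewhere). Between the 2 Tg libraries 9626 of 17772 tested genes (54.2%) lay more than 2-fold apart, against 108 (0.608%) between the DMSO libraries. The part of this library's differences in the results below was not tested. Some results are therefore given for Tg replicate 1 alone and Tg replicate 2 alone beside the value for both. Many lists are described below by the value for both only. Such a list is not to be taken as having moved alike in the 2 Tg libraries.

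**Figure D1:**
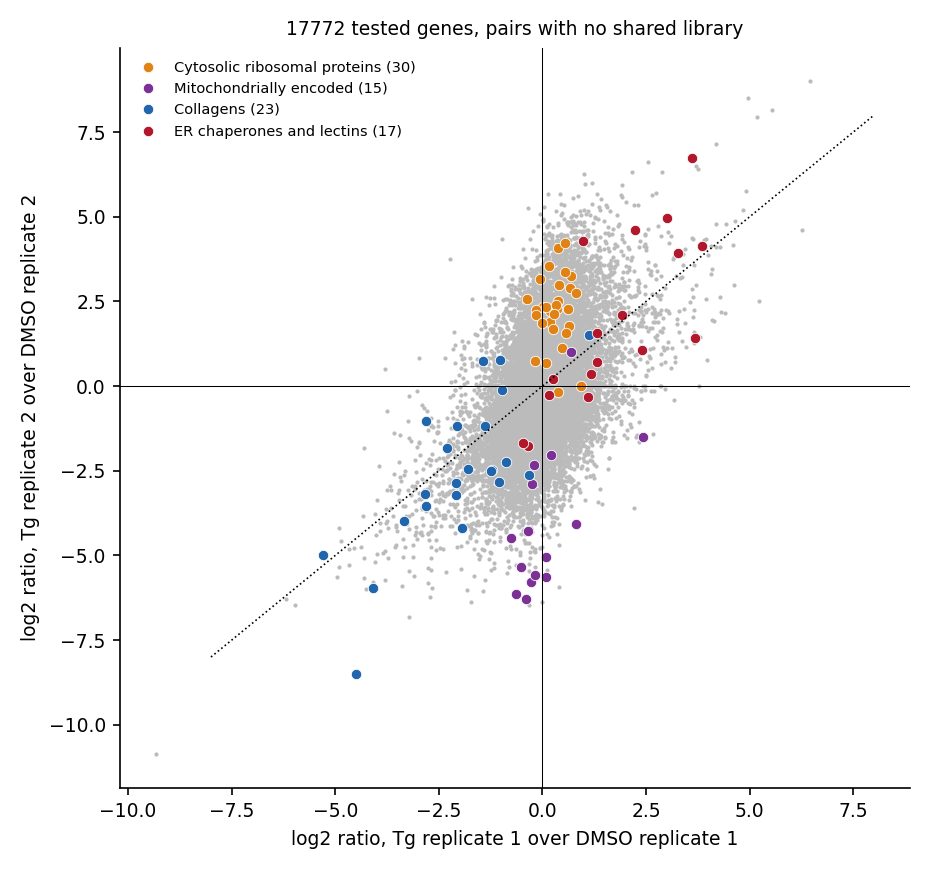
Log2 ratio of Tg replicate 1 over DMSO replicate 1 (x) and of Tg replicate 2 over DMSO replicate 2 (y) for 17772 tested genes (grey), with 4 gene lists in colour and the line of equal change dotted. ER chaperones lie mostly at the upper right and collagens mostly at the lower left, while ribosomal protein genes are raised mainly in Tg replicate 2 and mitochondrially encoded genes lowered mainly there.

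Setting each Tg library against a different DMSO library leaves no library shared between the ratios. Of 1501 genes over 2-fold higher in Tg replicate 1 than in DMSO replicate 1, 1090 (72.6%) were also higher in Tg replicate 2 than in DMSO replicate 2, where 40.5% of all genes were higher. Of 1525 genes over 2-fold lower in the first pair, 1359 (89.1%) were lower in the second, where 58.8% of all genes were lower. Read the other way, 3212 of 4219 genes over 2-fold higher in the second pair (76.1%) were higher in the first, and 4426 of 6052 over 2-fold lower (73.1%) were lower there. The replicate numbers do not tie a Tg library to a DMSO library, and with the DMSO libraries exchanged the 4 shares were 66.3%, 85.3%, 68.7% and 66.6%. The ratios correlated at r = 0.51, or 0.42 with the exchange, a description only, since genes do not vary independently. The 10 genes most unlike between the Tg libraries show the size of the disagreement. CCDC85B had 167 and 8855 normalised CPM in Tg libraries against 214 and 232 in DMSO libraries, and TPGS1, TMEM160, EXOSC4 and C4orf48 were likewise far higher in Tg replicate 2. PIK3C2A, which encodes a lipid kinase of membrane traffic, had 56.7 normalised CPM in Tg replicate 1 and no counts in replicate 2, against 56.6 and 41.1 in DMSO libraries. AP3M1, CAP1, KIF20A and DEGS1 were the others lower in replicate 2. In the fit of both Tg libraries the first 5 passed as higher at log2 changes of 4.34 to 5.41, yet in Tg replicate 1 alone CCDC85B, TPGS1 and TMEM160 lay at or below DMSO (-0.40, -0.05 and -0.15). None of these 5 calls held without DMSO replicate 1 (adjusted p = 0.08 to 0.12), without DMSO replicate 2 (0.068 to 0.1) or with voom and sample weights (0.1 to 0.98).

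Over all genes, 3427 of 17772 (19.3%) were higher and 2679 (15.1%) lower in Tg than in DMSO cells at an adjusted p below 0.05 (edgeR's quasi-likelihood test on all 16 LX-2 libraries, Benjamini-Hochberg over all tested genes). The median log2 change of all genes was -0.07. Both Tg libraries lay above both DMSO libraries in 3041 of the higher calls (17.1% of all tested genes) and below both in all 2679 lower calls (15.1% of all tested genes). Tg replicate 1 alone gave 3760 higher (20.2%) and 3798 lower (20.4%) of 18649 genes with a median of 0.01, and Tg replicate 2 alone 5830 (30.6%) and 8256 (43.3%) of 19054 with a median of -0.65. Scaling by library totals moved that last median to -1.39 and its share of higher calls to 26.9% from 41.4% under TMM, and moved the share in Tg replicate 1 to 59.1% from 49.7%. Without DMSO replicate 1 the fit of both Tg libraries called 663 higher and 1013 lower, and without DMSO replicate 2 it called 789 and 1114. With limma's voom and sample weights, where Tg replicate 2 had the lowest weight of the 16 libraries (0.0175) and Tg replicate 1 the next (0.156), 698 were higher and 564 lower. Calls of named genes lost there are marked below as voom. List counts with voom are given for some lists only, so a list without them is not to be taken as having held. With the 4 libraries alone edgeR called 0 genes, with 1750 at an unadjusted p under 0.05. The estimated biological coefficient of variation was 57.1% in these 4 and 29.5% over the 16 libraries. Adjusted p-values below therefore rest on a smaller common spread than the 4 compared libraries show. A list's counts are to be read against the shares of all genes given here. Counts for a Tg library alone come from a fit that holds no spread between Tg libraries. They describe that library and are no test of the Tg condition.

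ER chaperones rose as a group. Of 17 tested chaperones and lectins, 12 were higher and 1 lower (POFUT2), with a median log2 change of 1.89. All 12 had both Tg libraries above both DMSO libraries, as had 3041 of the 3427 higher calls over all genes. Tg replicate 1 alone gave 14 higher and 1 lower (median 1.41), and Tg replicate 2 alone 11 and 4 (median 1.47). The list summed to 22409 and 45021 normalised CPM in Tg libraries, against 4296 and 4288 in DMSO libraries. Without either DMSO replicate 9 were higher.

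HSPA5 encodes BiP, the ER's HSP70 chaperone and the protein that holds the stress sensors inactive. It had 10981 and 13731 normalised CPM in Tg libraries against 762 and 774 in DMSO libraries, a log2 change of 4.01 (SE 0.17, adjusted p = 8.9e-07). Both Tg libraries lay far above both DMSO libraries and close to each other. HSP90B1, the ER's HSP90, had 3705 and 18685 normalised CPM in Tg libraries against 782 and 767 (log2 change 3.85, SE 0.56, adjusted p = 0.00082), so replicate 2 was the higher by several fold. SDF2L1, a partner of the ER HSP40 proteins, had 460 and 4642 against 37.1 and 42.6 (adjusted p = 0.00082 for both Tg libraries together), with log2 changes of 3.54 in Tg replicate 1 alone and 6.80 in replicate 2 alone. CRELD2, a secreted ER stress protein, had 408 and 1739 against 50.7 and 54.7 (4.35, SE 0.55, adjusted p = 0.00037). HYOU1, the nucleotide exchange factor of BiP, went the other way between replicates, with 1164 and 471 against 219 and 223 (1.89, SE 0.31, adjusted p = 0.0019). CALR, the calcium-binding lectin calreticulin, had 2314 and 3025 against 925 and 1013 (1.46, SE 0.16, adjusted p = 0.00018). Its membrane-bound relative CANX had 1734 and 598 against 808 and 754, so the Tg libraries lay on opposite sides of DMSO and no call was made (adjusted p = 0.23).

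Promoter sequences are shown for 6 called genes of this group, and for XBP1, TMEM120A and HERPUD1 beside them, because the element that ATF6 binds with NF-Y, the ER stress response element (ERSE), was described from promoters of such chaperone genes. Windows of 60 bases upstream of the start were taken from RefSeq (GRCh38.p14) on the gene's strand, 5′ to 3′. Capitals mark the fixed letters of the match, which read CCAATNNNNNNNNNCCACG for ERSE and ATTGGNCCACG for ERSE-II on either strand.
HSPA5 ERSE: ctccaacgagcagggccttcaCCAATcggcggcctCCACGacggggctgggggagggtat
HSP90B1 ERSE: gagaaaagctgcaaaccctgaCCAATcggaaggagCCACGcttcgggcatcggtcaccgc
CRELD2 ERSE: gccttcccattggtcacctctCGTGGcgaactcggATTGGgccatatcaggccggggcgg
XBP1 ERSE: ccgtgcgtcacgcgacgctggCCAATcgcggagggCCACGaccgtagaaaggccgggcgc
CALR ERSE: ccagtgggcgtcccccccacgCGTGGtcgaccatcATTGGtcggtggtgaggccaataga
TMEM120A ERSE: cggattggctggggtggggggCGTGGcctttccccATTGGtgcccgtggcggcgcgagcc
SDF2L1 ERSE-II: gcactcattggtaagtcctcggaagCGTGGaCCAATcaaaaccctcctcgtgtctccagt
HERPUD1 ERSE-II: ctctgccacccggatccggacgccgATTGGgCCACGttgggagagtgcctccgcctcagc
HYOU1 ERSE-II: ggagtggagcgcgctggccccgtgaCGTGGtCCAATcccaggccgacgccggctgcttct

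These windows lie at chr9:125241371-125241430 (HSPA5, minus strand), chr12:103930195-103930254 (HSP90B1, plus), chr22:49918533-49918592 (CRELD2, plus), chr22:28800583-28800642 (XBP1, minus), chr19:12938363-12938422 (CALR, plus), chr7:75994660-75994719 (TMEM120A, minus), chr22:21642089-21642148 (SDF2L1, plus), chr16:56932000-56932059 (HERPUD1, plus) and chr11:119057356-119057415 (HYOU1, minus). The searched promoters ran from 250 bases before to 50 after the start, and 27 of 35116 (0.0769%) held ERSE, 19 (0.0541%) ERSE-II. Among 12168 tested genes with a promoter, 2488 were higher and 2027 lower, and the median log2 change was -0.08. Of the 16 that held ERSE, 9 were higher, 1 was lower and 6 were not called, with a median of 1.64 (1.24 in Tg replicate 1 alone, 1.69 in replicate 2 alone). The 9 were HSPA5, HSP90B1, CRELD2, XBP1, CALR, SERP1, ERO1B, FICD and TMEM120A, each with both Tg libraries above both DMSO libraries (the windows of SERP1, ERO1B and FICD are not printed). FICD, the enzyme that AMPylates BiP, had 120 and 70.5 normalised CPM in Tg libraries against 17.3 and 16.2 in DMSO libraries (log2 change 2.51, SE 0.23, adjusted p = 5.1e-05). TMEM120A, a membrane protein of the nuclear envelope, had 75.6 and 383 against 28.5 and 36.7 (2.81, SE 0.54, adjusted p = 0.0043), a call that was lost without DMSO replicate 1 (adjusted p = 0.053). SYNPO, an actin-binding protein, was the 1 lower gene, with 18.1 and 24.5 against 77.0 and 77.9 (-1.87, SE 0.18, adjusted p = 7.9e-05). Of 15 genes with ERSE-II, 5 were higher (SDF2L1, HERPUD1, HYOU1, RAD9A and CAMTA1) and 2 lower, with a median of 0.54. UPRE (TGACGTGG, the site of XBP1 and ATF6) was in 256 promoters (0.729%), and 34 of 143 tested genes with it were higher and 13 lower, with a median of 0.10. A match is a run of letters and not a shown binding site, and the known chaperone genes were part of how ERSE was defined.

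**Figure D2:**
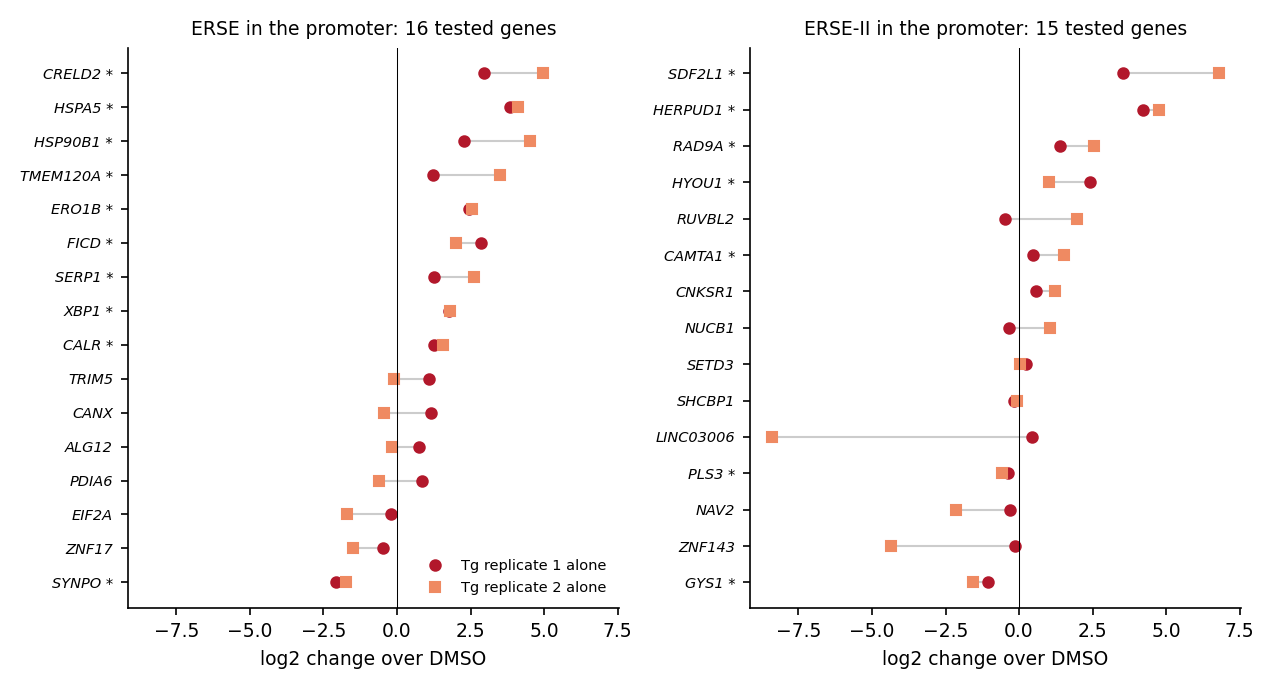
Log2 change over DMSO in Tg replicate 1 alone (circles) and Tg replicate 2 alone (squares) for every tested gene with ERSE (left, 16 genes) or ERSE-II (right, 15 genes) in its RefSeq promoter, sorted by the change of both together. An asterisk marks an adjusted p below 0.05 for both, and HSPA5, ERO1B, XBP1 and CALR hold nearly the same place in each library.

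Enzymes of disulfide formation and the rest of the secretory machinery moved less as groups. Of 18 disulfide isomerases and oxidases 8 were higher and 2 lower (median 0.53), and 5 and 6 were higher without DMSO replicate 1 and without DMSO replicate 2. PDIA4 had 1825 and 1716 normalised CPM in Tg libraries against 349 and 377 in DMSO libraries (log2 change 2.29, SE 0.14, adjusted p = 4.3e-06), and the 2 Tg libraries nearly coincided. The oxidase ERO1B had 20.2 and 22.8 against 4.25 and 3.18 (2.53, SE 0.31, adjusted p = 0.00031). SELENOM, a selenoprotein of the ER, had 121 and 2719 against 76.4 and 93.5, above DMSO mainly in replicate 2, and its call (adjusted p = 0.011) was lost without DMSO replicate 1 (0.096), without DMSO replicate 2 (0.075) and with voom (0.24). PDIA6, which carries ERSE, had 477 and 183 against 259 and 276 and was not called (adjusted p = 0.47).

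Of 23 genes of ER-associated degradation 7 were higher and 1 lower (median 0.45), and without either DMSO replicate 3 were higher. In Tg replicate 1 alone 12 were higher and 2 lower, and in replicate 2 alone 9 and 11. HERPUD1, the membrane scaffold of the HRD1 ligase that disposes of misfolded proteins, had 512 and 782 normalised CPM in Tg libraries against 27.8 and 27.9 in DMSO libraries (log2 change 4.54, SE 0.22, adjusted p = 1.2e-06). SELENOS had 89.7 and 245 against 27.6 and 28.0 (2.59, SE 0.36, adjusted p = 0.00068), and DERL2, which forms part of the exit channel, 114 and 154 against 48.7 and 46.4 (1.49, SE 0.17, adjusted p = 0.0002). In these 3 genes both Tg libraries were above both DMSO libraries. Among 36 genes of ER translocation and COPII transport 14 were higher and 2 lower (SEC62 and SEC23A), with a median of 0.33. There the Tg libraries differed, with 24 higher and 3 lower in replicate 1 alone (median 0.53) and 14 and 17 in replicate 2 alone (median -0.22), and 3 and 5 were higher without DMSO replicate 1 and without DMSO replicate 2. SEC11C, a subunit of signal peptidase, had 110 and 194 against 21.3 and 23.1 (2.78, SE 0.25, adjusted p = 4.8e-05).

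The sensors themselves were chosen for description after their values were seen. ERN1, which encodes IRE1, had 46.8 and 25.3 normalised CPM in Tg libraries against 17.6 and 15.1 in DMSO libraries (log2 change 1.14, SE 0.26, adjusted p = 0.0088), a call lost without DMSO replicate 1 (0.062), without DMSO replicate 2 (0.089) and under library totals (0.12). EIF2AK3, which encodes PERK, had 42.2 and 7.05 against 18.4 and 15.9, and ATF6 had 67.0 and 32.5 against 46.4 and 47.2. For both, Tg replicate 1 lay above and replicate 2 below DMSO, and neither was called (adjusted p = 0.46 and 0.81). In the list of 17 sensors and eIF2alpha regulators 8 were higher and 1 lower (MBTPS1, the protease that releases ATF6), but 1 and 2 were higher without DMSO replicate 1 and without DMSO replicate 2. PPP1R15A, or GADD34, which brings the phosphatase to eIF2alpha, had 380 and 264 against 82.4 and 87.5 (1.92, SE 0.21, adjusted p = 0.00015) with no overlap. WFS1, the ER membrane protein wolframin, had 175 and 610 against 83.8 and 97.3 (2.12, SE 0.42, adjusted p = 0.0047, and 0.054 without DMSO replicate 1).

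Of 16 transcription factors of the stress response 10 were higher and 1 lower (CREB3L1), with a median log2 change of 1.21. The counts were 10 and 2 in Tg replicate 1 alone (median 0.89) and 10 and 5 in Tg replicate 2 alone (median 0.83). ATF4 had 602 and 1340 normalised CPM in Tg libraries against 219 and 240 in DMSO libraries (log2 change 2.08, SE 0.30, adjusted p = 0.00083). Both Tg libraries were above DMSO, with replicate 2 the higher. DDIT3, the pro-apoptotic factor CHOP that ATF4 induces, had 254 and 1709 against 6.48 and 6.35 (7.25, SE 0.75, adjusted p = 0.00012). NUPR1, a small stress-induced chromatin protein, had 71.9 and 594 against 5.08 and 6.04 (5.90, SE 0.79, adjusted p = 0.00052). XBP1, the substrate of IRE1, differed little between Tg libraries, with 204 and 218 against 54.5 and 65.8 (1.81, SE 0.15, adjusted p = 3.4e-05). Counts per gene do not separate its spliced from its unspliced form. ATF3, a stress-induced repressor, had 33.1 and 8.84 against 3.68 and 3.76 (2.51, SE 0.46, adjusted p = 0.0031), here with replicate 1 the higher. CREB3L4, an ER-bound relative of ATF6, had 18.4 and 30.1 against 5.08 and 5.40 (2.20, SE 0.29, adjusted p = 0.00052).

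**Figure D3:**
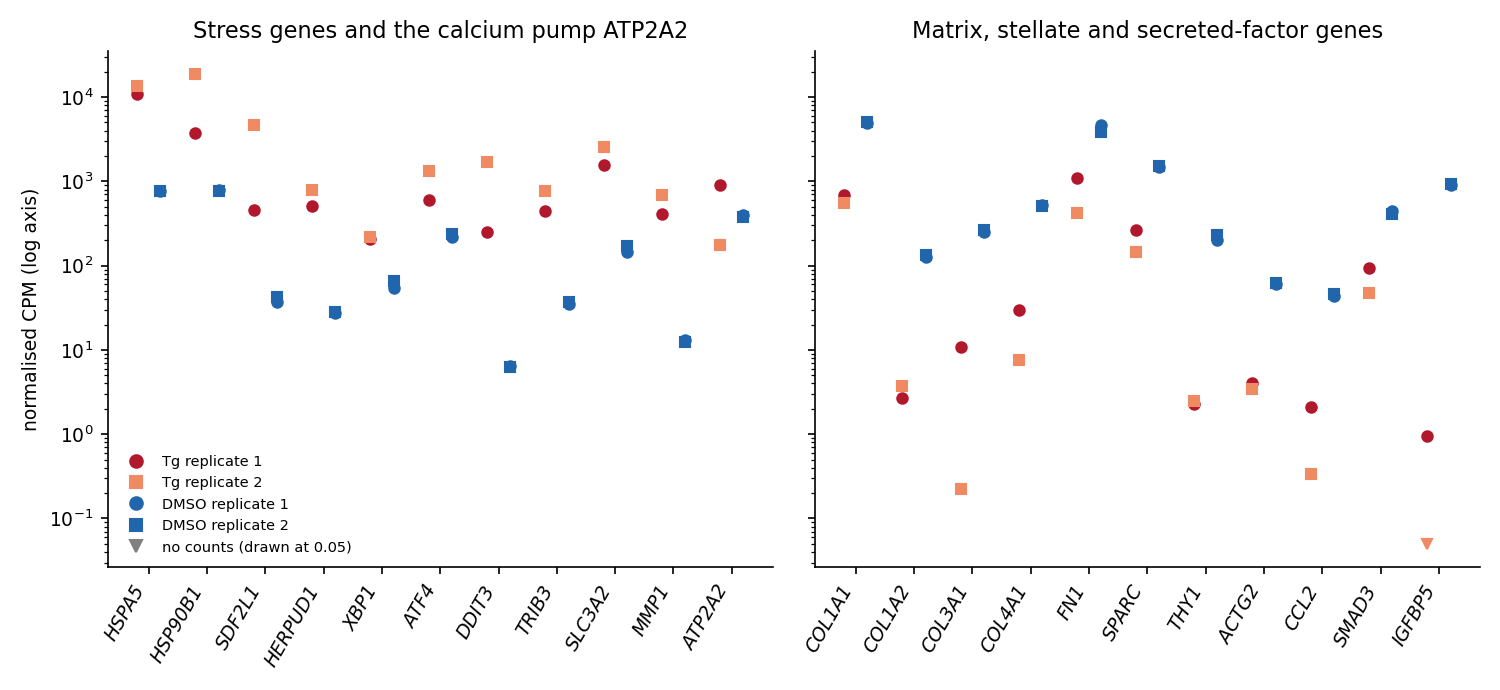
Normalised CPM (log axis) of 11 stress and calcium genes (left) and 11 matrix, stellate and secreted-factor genes (right) in each Tg library (red circle, replicate 1, and orange square, replicate 2) and each DMSO library (blue). Every gene shown except ATP2A2 has both Tg libraries on 1 side of both DMSO libraries, and IGFBP5 had no counts in Tg replicate 2 (triangle, drawn at 0.05).

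Effectors of the integrated stress response rose with these factors. Of 20 tested, 11 were higher and 1 lower (TRIB2), with a median log2 change of 1.70. All 11 had both Tg libraries above both DMSO libraries, as had 3041 of the 3427 higher calls over all genes. Tg replicate 1 alone gave 13 and 2 (median 1.48) and Tg replicate 2 alone 13 and 4 (median 1.03), and without either DMSO replicate 9 were higher. TRIB3, a pseudokinase that restrains AKT and ATF4, had 443 and 777 normalised CPM in Tg libraries against 35.1 and 37.5 in DMSO libraries (log2 change 4.07, SE 0.25, adjusted p = 4.2e-06). CHAC1, which degrades glutathione, had 92.8 and 58.0 against 4.97 and 4.82 (3.94, SE 0.28, adjusted p = 9.5e-06). SESN2, an inhibitor of mTORC1, had 145 and 197 against 19.3 and 20.0 (3.12, SE 0.20, adjusted p = 4.5e-06). In all 3 the Tg libraries lay within about 2-fold of each other and far above DMSO. STC2, a secreted glycoprotein, had 566 and 412 against 133 and 127 (1.91, SE 0.19, adjusted p = 9.9e-05). GDF15, a stress hormone, had 16.5 and 30.2 against 0.570 and 1.59 (4.42, SE 0.77, adjusted p = 0.0024).

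Some genes of amino acid supply were also higher. Of 20 genes of amino acid synthesis 11 were higher and 0 lower (median log2 change 0.86), and 4 and 7 were higher without DMSO replicate 1 and without DMSO replicate 2. SHMT2, of mitochondrial serine and glycine metabolism, had 601 and 1467 normalised CPM in Tg libraries against 195 and 217 in DMSO libraries (2.33, SE 0.33, adjusted p = 0.00072). PSAT1, of serine synthesis, had 463 and 151 against 77.1 and 81.5 (1.95, SE 0.38, adjusted p = 0.0043, and 0.054 without DMSO replicate 1), and PHGDH, the first enzyme of that route, had 382 and 2159 against 166 and 190 (2.83, SE 0.56, adjusted p = 0.0048, and 0.055 without DMSO replicate 1). The Tg libraries thus ranked in opposite order for these neighbours in one pathway. ASNS, asparagine synthetase, was at 9.97 and 4.59 against 1.04 and 1.48 (2.55, SE 0.42, adjusted p = 0.0018). Of 18 amino acid transporters 7 were higher and 2 lower (median 0.25), with 3 higher without either DMSO replicate. Their median was 0.66 in Tg replicate 1 alone and -0.32 in replicate 2 alone. SLC3A2, the heavy chain shared by several exchangers, had 1552 and 2561 against 146 and 172 (3.69, SE 0.25, adjusted p = 6.8e-06). SLC38A2 had 590 and 188 against 527 and 441 and was not called (adjusted p = 0.54). Of 20 cytosolic aminoacyl-tRNA synthetases 9 were higher and 0 lower (median 0.55), and 6 were higher without either DMSO replicate, with AARS1 at 633 and 927 against 132 and 144 (2.50, SE 0.19, adjusted p = 1.3e-05) and WARS1 at 374 and 801 against 93.2 and 103 (2.58, SE 0.29, adjusted p = 0.00018).

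The C/EBP-ATF response element (CARE, TGATGNAA on either strand), the composite site of ATF4 and its partners, is shown for 4 of the called genes above. Windows, strand and capitals are as for ERSE.
ASNS CARE: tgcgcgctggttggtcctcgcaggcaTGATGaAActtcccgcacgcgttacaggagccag
CHAC1 CARE: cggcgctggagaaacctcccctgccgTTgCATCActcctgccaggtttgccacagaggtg
ATF3 CARE: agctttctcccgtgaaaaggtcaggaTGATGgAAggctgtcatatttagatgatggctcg
AARS1 CARE: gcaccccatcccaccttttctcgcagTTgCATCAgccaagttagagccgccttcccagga

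They lie at chr7:97872443-97872502 (ASNS, minus strand), chr15:40953236-40953295 (CHAC1, plus), chr1:212565190-212565249 (ATF3, plus) and chr16:70289660-70289719 (AARS1, minus). These letters are common: 1270 of 35116 promoters (3.62%) held them. Of 336 tested genes with a match 74 were higher and 50 lower, with a median log2 change of -0.09 beside -0.08 for all tested genes with a promoter.

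The pumps that thapsigargin blocks did not move together. ATP2A2, the ubiquitous SERCA pump, had 910 and 175 normalised CPM in Tg libraries against 404 and 379 in DMSO libraries. Replicate 1 was above and replicate 2 below both DMSO libraries, and the gene was not called with both (log2 change 0.47, SE 0.50, adjusted p = 0.48), while the changes alone were 1.23 and -1.22. ATP2A3, a SERCA pump known from blood and epithelial cells, was at 15.1 and 37.7 against 8.14 and 9.90 (1.54, SE 0.35, adjusted p = 0.0086, 0.086 without DMSO replicate 1 and 0.26 with voom). ATP2B4, a pump of the plasma membrane, fell, at 56.4 and 24.5 against 132 and 110 (-1.57, SE 0.31, adjusted p = 0.0049, and 0.056 with voom). Of 21 genes of ER calcium handling 6 were higher and 3 lower (median 0.32), against 11 and 5 in Tg replicate 1 alone and 9 and 10 in Tg replicate 2 alone, and 0 and 2 were higher without DMSO replicate 1 and without DMSO replicate 2.

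Genes of cell death and survival were called at about the rate of all genes, 5 of 25 higher and 4 lower (median -0.14). Each Tg library alone gave 8 higher, with 6 lower in replicate 1 and 14 in replicate 2, and without either DMSO replicate 2 were higher. HRK, a pro-apoptotic BH3-only protein, had 6.94 and 10.5 normalised CPM in Tg libraries against 0 and 0.0529 in DMSO libraries, the last being a single count (adjusted p = 0.00012). BAX, the pore-forming protein, had 101 and 710 against 100 and 105. Its call (adjusted p = 0.029) rested on replicate 2, with a log2 change of -0.01 in Tg replicate 1 alone. The call was lost without DMSO replicate 1 (0.15), without DMSO replicate 2 (0.13), under library totals (0.056) and with voom (0.86). MCL1, a survival protein, had 213 and 129 against 196 and 191, and TNFRSF10B, the death receptor DR5, 211 and 77.1 against 184 and 186, and neither was called (adjusted p = 0.52 and 0.41).

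Collagen genes fell as a group. Of 23 tested collagen chains 18 were lower and 1 higher (COL13A1), with a median log2 change of -2.09. All 18 had both Tg libraries below both DMSO libraries, as had all 2679 lower calls over all genes. Tg replicate 1 alone gave 20 lower and 1 higher (median -1.97), Tg replicate 2 alone 19 and 3 (median -3.23). The list summed to 2339 and 2350 normalised CPM in Tg libraries, against 11810 and 11999 in DMSO libraries. Without DMSO replicate 1 and without DMSO replicate 2, 13 and 14 were lower, and with voom 13.

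COL1A1 and COL1A2 encode the chains of type I collagen, the main fibre of scar tissue. COL1A1 had 688 and 553 normalised CPM in Tg libraries against 4887 and 5096 in DMSO libraries (log2 change -3.01, SE 0.16, adjusted p = 1.6e-06). COL1A2 had 2.71 and 3.69 against 126 and 133 (-5.35, SE 0.22, adjusted p = 8.9e-07). In both genes the 2 Tg libraries were close to each other and well below DMSO, so the fall was about as large in either library. COL3A1, the chain of type III collagen, did differ between replicates, with 10.8 and 0.224 against 253 and 262 (-5.47, SE 0.91, adjusted p = 0.0019). The basement membrane chain COL4A1 was at 30.1 and 7.61 against 520 and 505 (-4.75, SE 0.49, adjusted p = 0.00011). COL5A3 had 0.209 and 0 against 6.69 and 7.36 (-5.61, SE 0.62, adjusted p = 0.00017, and 0.27 with voom).

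The other matrix genes moved the same way. Of 31 matrix glycoproteins and proteoglycans 19 were lower and 3 higher (median log2 change -1.66), and with voom 13 were lower and 3 higher. The median was -1.59 in Tg replicate 1 alone and -2.07 in replicate 2 alone. FN1, fibronectin, had 1089 and 418 normalised CPM in Tg libraries against 4645 and 3838 in DMSO libraries (-2.49, SE 0.35, adjusted p = 0.00073). SPARC, a collagen-binding matrix protein, had 263 and 144 against 1490 and 1539 (-2.90, SE 0.24, adjusted p = 3.1e-05). FBLN1, fibulin 1, nearly vanished, with 0.470 and 0.224 against 60.7 and 63.1 (-7.32, SE 0.44, adjusted p = 6.8e-06). POSTN, periostin, had no counts in either Tg library against 1.97 and 2.28, at least 19.9-fold lower with 3 counts over the group as floor, a call lost with voom (adjusted p = 0.34). Against this direction, SMOC1 and MFAP2 had no counts in either DMSO library and 7.20 and 9.62, and 3.65 and 8.95, in Tg libraries, at least 101-fold and 68.0-fold higher by the same floor.

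Of 27 collagen-modifying enzymes 15 were lower and 3 higher (median -0.67), and with voom 8 were lower and 1 higher. LOXL2, which cross-links collagen, had 312 and 88.0 normalised CPM in Tg libraries against 1421 and 1532 in DMSO libraries (log2 change -2.88, SE 0.43, adjusted p = 0.001). SERPINH1, the collagen chaperone HSP47 of the ER, had 181 and 81.6 against 410 and 460 (-1.73, SE 0.29, adjusted p = 0.0021), the opposite direction to the general chaperones. LOX, a cross-linking enzyme named after its values were seen, had 248 and 60.8 against 175 and 161, on both sides of DMSO, and was not called (adjusted p = 0.85). Of 21 matrix proteases and inhibitors 9 were lower and 3 higher (median -0.59), and without DMSO replicate 2 only 5 were lower. With voom 4 were lower and 3 higher. MMP1, interstitial collagenase, rose to 414 and 698 in Tg libraries, against 13.3 and 12.5 in DMSO libraries (5.43, SE 0.28, adjusted p = 1.3e-06). MMP2, a gelatinase typical of activated stellate cells, fell to 5.64 and 5.48, against 62.9 and 69.7 (-3.57, SE 0.16, adjusted p = 9.9e-07). TIMP2, an inhibitor of these proteases, had 308 and 375 against 891 and 887 (-1.38, SE 0.16, adjusted p = 0.0002). For all 3 the Tg libraries differed by less than 2-fold.

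Most stellate and fibroblast markers were lower, while genes of stellate identity went both ways. Of the 16 stellate and fibroblast markers 12 were lower and 1 higher (S100A6), with a median log2 change of -2.55, and 12 were lower without either DMSO replicate. Of 20 genes of stellate identity 9 were lower and 6 higher (median -0.43), and with voom 4 were lower and 5 higher. That list summed to 1991 and 4665 normalised CPM in Tg libraries, against 3166 and 3297 in DMSO libraries. THY1, a surface marker of fibroblasts, had 2.30 and 2.46 normalised CPM in Tg libraries against 202 and 231 in DMSO libraries (-6.51, SE 0.38, adjusted p = 3.1e-06). VIM, vimentin, had 961 and 2025 against 1489 and 1565, with the Tg libraries on either side, and was not called (adjusted p = 0.93). GFAP, a marker of quiescent stellate cells, was at 2.35 and 4.48 against 0.363 and 0.159 (3.65, SE 0.54, adjusted p = 0.00097). Of 23 contractile genes 14 were lower and 1 higher (ANKRD1), with a median of -1.03, and 9 and 11 were lower without DMSO replicate 1 and without DMSO replicate 2. ACTA2, alpha smooth muscle actin, had 4.44 and 0 against 30.7 and 30.8 (-3.64, SE 0.80, adjusted p = 0.0078, and 0.065 with voom), and ACTG2 4.02 and 3.47 against 60.2 and 62.1 (-4.02, SE 0.19, adjusted p = 1.2e-06). MYLK, myosin light chain kinase, had 145 and 42.3 against 762 and 636 (-2.90, SE 0.43, adjusted p = 0.00089), and TAGLN, transgelin, 73.0 and 201 against 574 and 638 (-2.15, SE 0.36, adjusted p = 0.0019). In all 4 both Tg libraries were below both DMSO libraries, whereas FLNA, filamin A, with 4383 and 5653 against 6206 and 5986, was not called (adjusted p = 0.2) although it also did not overlap.

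Among 27 TGF-beta and SMAD genes 14 were lower and 1 higher (the antagonist NOG), with a median log2 change of -0.65. The median was -0.44 in Tg replicate 1 alone and -1.14 in replicate 2 alone. Without DMSO replicate 1 and without DMSO replicate 2, 8 and 7 were lower, and with voom 4 were lower and 1 higher. SMAD3, the signal transducer, had 94.0 and 47.2 normalised CPM in Tg libraries against 443 and 408 in DMSO libraries (-2.59, SE 0.26, adjusted p = 0.0001). The ligand TGFB2 had 13.2 and 3.69 against 88.7 and 72.8 (-3.22, SE 0.44, adjusted p = 0.00061). PMEPA1, a feedback target, was at 1.10 and 1.45 against 9.95 and 9.27 (-2.94, SE 0.20, adjusted p = 7.6e-06, and 0.081 with voom).

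**Figure D4:**
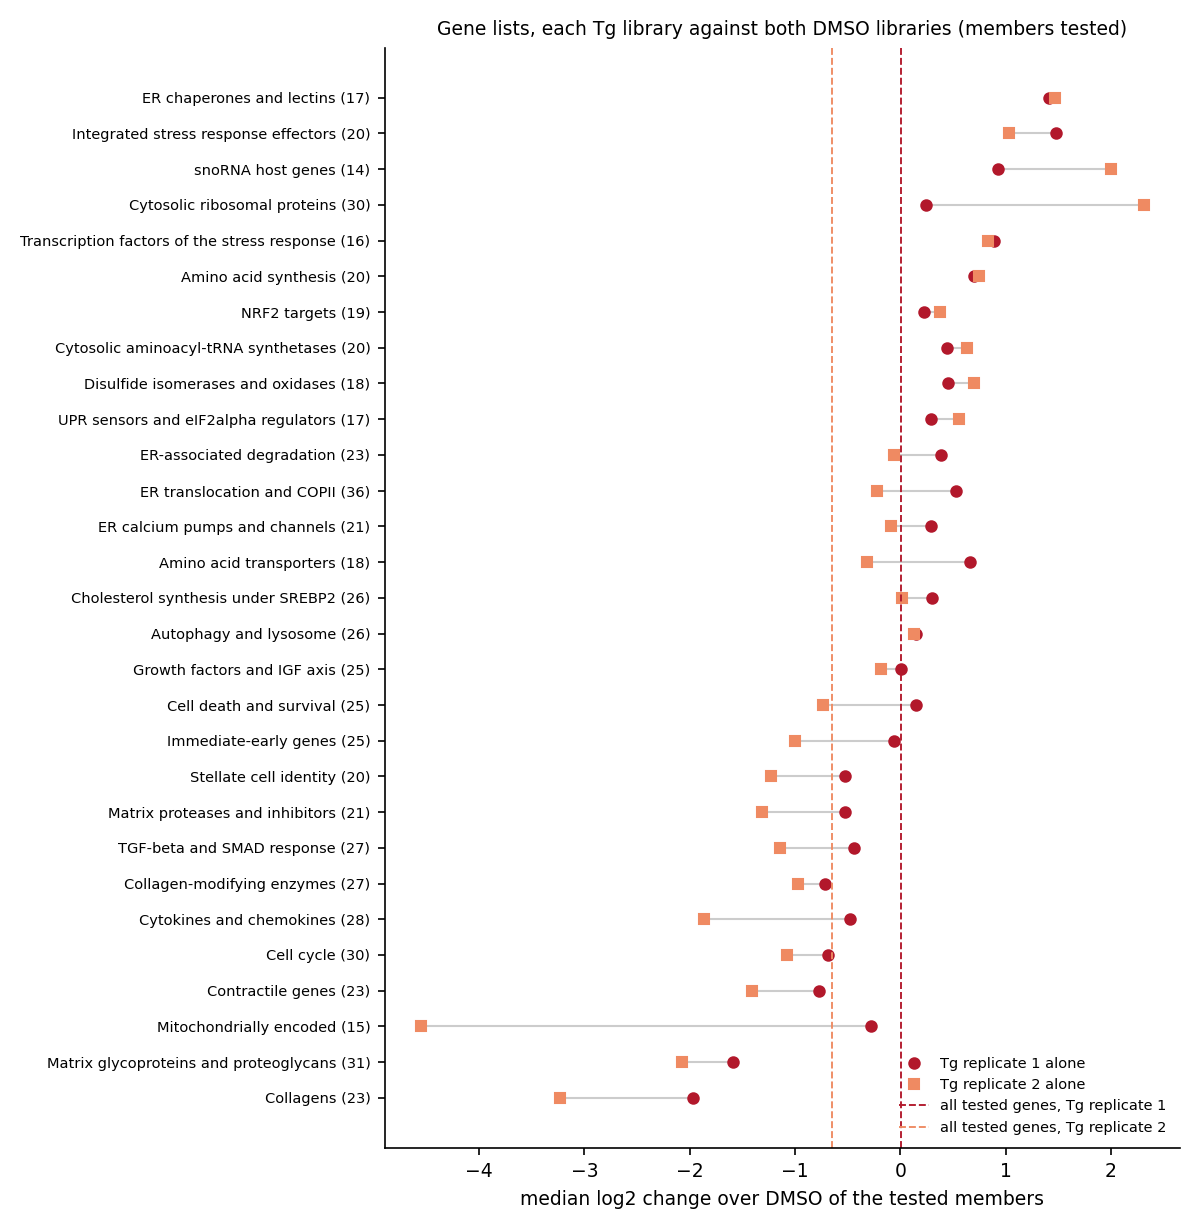
Median log2 change over DMSO of the tested members of each gene list (number tested in brackets) in Tg replicate 1 alone (circles) and Tg replicate 2 alone (squares), sorted by the median for both. Dashed lines give the medians of all tested genes, 0.01 and -0.65. ER chaperones (1.41 and 1.47) lie high and collagens (-1.97 and -3.23) low in both libraries, while ribosomal proteins (0.24 and 2.31) and mitochondrially encoded genes (-0.28 and -4.55) differ most.

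Among secreted signals the 28 cytokine and chemokine genes gave 13 lower and 4 higher (median log2 change -0.70), with 8 and 7 lower without DMSO replicate 1 and without DMSO replicate 2. With voom 5 were lower and 1 higher. CCL2, which draws monocytes, had 2.09 and 0.336 normalised CPM in Tg libraries against 43.7 and 45.9 in DMSO libraries (-5.04, SE 0.47, adjusted p = 5.9e-05). CXCL6, a neutrophil chemokine, had 2.04 and 1.45 against 38.1 and 37.3 (-4.40, SE 0.24, adjusted p = 1.6e-06), and the adhesion molecule VCAM1 0.313 and 1.12 against 9.28 and 9.27 (-3.85, SE 0.50, adjusted p = 0.00046, and 0.089 with voom). All 3 were below DMSO in both Tg libraries. PTX3, a soluble pattern receptor, had 439 and 171 against 259 and 279 and was not called (adjusted p = 0.67). In the 25 growth factor and IGF axis genes 5 were higher and 8 lower with a median of 0.00, and 3 were higher and 6 lower without either DMSO replicate. Tg replicate 1 alone gave 7 and 10, Tg replicate 2 alone 8 and 12. IGFBP5, a binding protein of IGFs that fibroblasts secrete, had 0.940 and 0 against 917 and 936, that is 18 and 0 counts against 17686 in each DMSO library (-10.63, SE 0.67, adjusted p = 4.3e-06). IGFBP7 had 19.7 and 4.48 against 188 and 218 (-4.04, SE 0.51, adjusted p = 0.00039). FST, which binds activin, went up, with 127 and 504 against 21.6 and 19.8 (3.93, SE 0.49, adjusted p = 0.00034). The BMP antagonist GREM1, at 993 and 236 against 868 and 801, was not called (adjusted p = 0.46).

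Other groups changed in part. Of 30 cell cycle genes 16 were lower and 2 higher (median log2 change -0.84), with 9 and 10 lower without DMSO replicate 1 and without DMSO replicate 2. CCNA2, cyclin A2, had 82.5 and 32.1 normalised CPM in Tg libraries against 185 and 184 in DMSO libraries (-1.68, SE 0.33, adjusted p = 0.0044). Of 19 NRF2 targets 10 were higher and 1 lower (median 0.68), with 3 higher without either DMSO replicate and 5 with voom. HMOX1, heme oxygenase, had 190 and 106 against 30.1 and 31.7 (2.26, SE 0.25, adjusted p = 0.0002). Of 25 immediate-early genes 4 were higher and 5 lower, near the rate of all genes, against 8 and 8 in Tg replicate 1 alone, 6 and 12 in Tg replicate 2 alone, and 2 and 2 without either DMSO replicate. EGR1 fell to 5.74 and 1.57, against 41.3 and 47.5 (-3.54, SE 0.44, adjusted p = 0.00034), and the phosphatase DUSP5 rose to 43.5 and 66.8, against 22.4 and 21.1 (1.34, SE 0.21, adjusted p = 0.0013, and 0.054 with voom). Of 26 autophagy and lysosome genes 7 were higher and 2 lower (median 0.18), and 0 and 3 were higher without DMSO replicate 1 and without DMSO replicate 2. CTSB, cathepsin B, had 145 and 171 against 333 and 369 (-1.15, SE 0.15, adjusted p = 0.00042). Of 26 genes of cholesterol synthesis 8 were higher and 1 lower (median 0.21), with 1 and 2 higher without DMSO replicate 1 and without DMSO replicate 2. With voom 2 were higher. MVD, an enzyme of that route, had 94.6 and 2217 against 40.9 and 52.5 (adjusted p = 0.0073), a call lost without DMSO replicate 1 (0.077), without DMSO replicate 2 (0.06) and with voom (0.051).

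Ribosomal protein and mitochondrially encoded genes moved with Tg replicate 2. Of 30 cytosolic ribosomal protein genes 23 were higher with both Tg libraries (median log2 change 1.65), but 16 of these had both Tg libraries above both DMSO libraries, Tg replicate 1 alone gave 6 higher and 2 lower (median 0.24) and Tg replicate 2 alone 28 and 0 (median 2.31). Without either DMSO replicate 0 were higher, and with voom 1 was. RPL13 had 773 and 11488 normalised CPM in Tg libraries against 600 and 680 in DMSO libraries, with a log2 change of 0.29 in Tg replicate 1 alone. It was not called without DMSO replicate 1 (adjusted p = 0.11), without DMSO replicate 2 (0.086) or with voom (0.43). These genes have many pseudogene copies among which reads can be split. Of 15 mitochondrially encoded genes, which have nuclear copies, 1 was higher and 0 lower with both (median -1.06), against 3 higher and 6 lower in Tg replicate 1 alone (median -0.28) and 1 and 14 in Tg replicate 2 alone (median -4.55). MT-CO1 had 5881 and 415 against 7535 and 8146 (-1.32, SE 0.76, adjusted p = 0.19). Host genes of snoRNAs, whose transcripts decay when translated, gave 10 of 14 higher and 0 lower (median 1.69), with 12 higher in Tg replicate 1 alone, 11 in Tg replicate 2 alone, and 4 and 8 without DMSO replicate 1 and without DMSO replicate 2. GAS5 had 156 and 588 against 43.9 and 47.6 (3.02, SE 0.45, adjusted p = 0.001), above DMSO in both Tg libraries.

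Taken over all genes, list members included, the 12 largest rises with at least 5 normalised CPM in both Tg libraries included SMOC1, TENM4, CDH15, HRK, KCP, DDIT3, UCA1, FOLR3, SPP1, BEX2 and SDF2L1. SMOC1, HRK, DDIT3 and SDF2L1 are the same genes as in the lists above. TENM4, a teneurin of the cell surface, had 7.83 and 8.28 normalised CPM in Tg libraries and no counts in DMSO libraries, at least 101-fold higher with 3 counts over the group as floor. SPP1, osteopontin, a secreted protein linked to liver fibrosis, had 14.9 and 17.9 against 0.207 and 0.159 (log2 change 6.43, SE 0.29, adjusted p = 9.9e-07). The 2 Tg libraries were close for both. UCA1, a long noncoding RNA, had 69.4 and 15.6 against 0.415 and 0.159 (7.18, SE 0.71, adjusted p = 8.5e-05), while KCP, a secreted BMP regulator, had 43.7 and 222 against 0.933 and 0.106 (7.97, SE 0.96, adjusted p = 0.00029). BEX2 had 25.9 and 39.1 against 0.415 and 0.582 (adjusted p = 7.6e-06 for both together), with log2 changes of 5.70 in Tg replicate 1 alone and 6.21 in replicate 2 alone.

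The 12 largest falls were ITGB6, CD248, IGFBP5, C3orf14, SULF1, FBLN1, TP73-AS1, THY1, ZNF354C, DIO2, B3GALNT1 and HTRA3. ITGB6, the integrin subunit that with integrin alpha V activates latent TGF-beta, had no counts in either Tg library against 13.9 and 11.3 normalised CPM in DMSO libraries, at least 118-fold lower. CD248, endosialin, a marker of pericytes and activated stellate cells, had no counts in Tg libraries against 9.85 and 13.0, at least 107-fold lower, and C3orf14 none against 7.67 and 6.41, at least 66.0-fold lower. HTRA3, a secreted protease, had 0.313 and 0.336 against 20.2 and 23.0 (log2 change -6.04, SE 0.40, adjusted p = 6e-06). With voom 9 of the 12 falls were not called (adjusted p = 0.1 to 0.4, with 0.12 for HTRA3, 0.15 for ITGB6, 0.3 for CD248 and 0.23 for C3orf14), the others being IGFBP5, FBLN1 and THY1, while 0 of the 12 rises were lost. ITGB6, CD248 and C3orf14 had no counts in Tg replicate 1, which held counts for 24036 genes, and none in Tg replicate 2, which held counts for 15840. The labels do not say whether counting used strand, so reads of TP73-AS1 and of its antisense partner cannot be told apart.

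The shATF4 libraries are separate from those that chose these genes. For all 12 rises, and for all 12 falls, both shATF4 Tg libraries lay beyond both shATF4 DMSO libraries on the same side. The number of all genes lying beyond in this way was not computed, so these counts have no share of all genes beside them. SPP1 had 12.8 and 10.6 normalised CPM in shATF4 Tg libraries against 0.752 and 0.678 in shATF4 DMSO libraries, and ITGB6 had 0.111 and 0.187 against 11.8 and 12.7. Over 17772 genes the log2 change in shATF4 cells correlated with that of Tg replicate 1 at r = 0.81 and with that of Tg replicate 2 at r = 0.42, across genes.

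AA_Dep libraries show which of these genes differ between the ER stressor and a lack of amino acids. Tg was compared with AA_Dep directly: 2811 genes (15.8%) were higher and 1870 (10.5%) lower in Tg than in AA_Dep cells. Without Tg replicate 1 these were 5745 and 8231, and without Tg replicate 2, 2477 and 2883. Of 17 ER chaperones and lectins 13 were higher and 0 lower (median log2 difference 2.43). HSPA5 had 10981 and 13731 normalised CPM in Tg libraries against 456 and 490 in AA_Dep libraries (log2 difference 4.71, SE 0.18, adjusted p = 4.3e-07). PDIA4 had 1825 and 1716 against 120 and 129 (3.83, SE 0.15, adjusted p = 4.3e-07), and HERPUD1 512 and 782 against 48.9 and 55.3 (3.64, SE 0.21, adjusted p = 1.2e-05). Both AA_Dep libraries were below both DMSO libraries for HSPA5 and PDIA4 and above them for HERPUD1.

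Integrated stress response effectors divided, 4 of 20 higher and 4 lower in Tg than in AA_Dep cells (median 0.30). CHAC1 had 92.8 and 58.0 normalised CPM in Tg libraries against 94.2 and 67.0 in AA_Dep libraries. It was not called (log2 difference -0.10, SE 0.25, adjusted p = 0.79), and its difference was -0.53 without Tg replicate 1 and 0.20 without Tg replicate 2. TRIB3 had 443 and 777 against 210 and 183 (1.64, SE 0.23, adjusted p = 0.0021), and DDIT3 254 and 1709 against 59.7 and 47.0 (4.20, SE 0.65, adjusted p = 0.0036). ASNS went the other way, at 9.97 and 4.59 against 24.6 and 23.0 (-1.69, SE 0.38, adjusted p = 0.016). ATF4 itself had 602 and 1340 against 745 and 591, with overlapping groups and no call (0.54, SE 0.29, adjusted p = 0.18). Its difference was 0.95 without Tg replicate 1 and -0.15 without Tg replicate 2. Cholesterol genes gave 21 of 26 higher and 1 lower in Tg than in AA_Dep cells (median 1.11), and immediate-early genes 1 of 25 higher and 18 lower (median -1.23). EGR1 had 5.74 and 1.57 against 31.0 and 23.8 (-2.84, SE 0.43, adjusted p = 0.0031). Among collagens 8 of 23 were lower and 2 higher. COL1A1 had 688 and 553 against 1004 and 927 (-0.64, SE 0.15, adjusted p = 0.018), while COL1A2 had 2.71 and 3.69 against 0.563 and 0.717 (2.29, SE 0.23, adjusted p = 0.00034), so the chains of type I collagen were ordered oppositely. For 10 of the 12 largest rises and 12 of the 12 largest falls both AA_Dep libraries lay beyond both DMSO libraries on the same side as Tg. These genes were chosen by their distance from the same DMSO libraries, which favours that side. How many of all genes lay so was not computed, so nothing further is read from these counts. Of the 12 rises 7, and of the 12 falls 1, were called different between Tg and AA_Dep. The genes were also chosen by their levels in the same Tg libraries, so these counts are a description only. A gene not called is not shown to be alike in both.

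**Figure D5:**
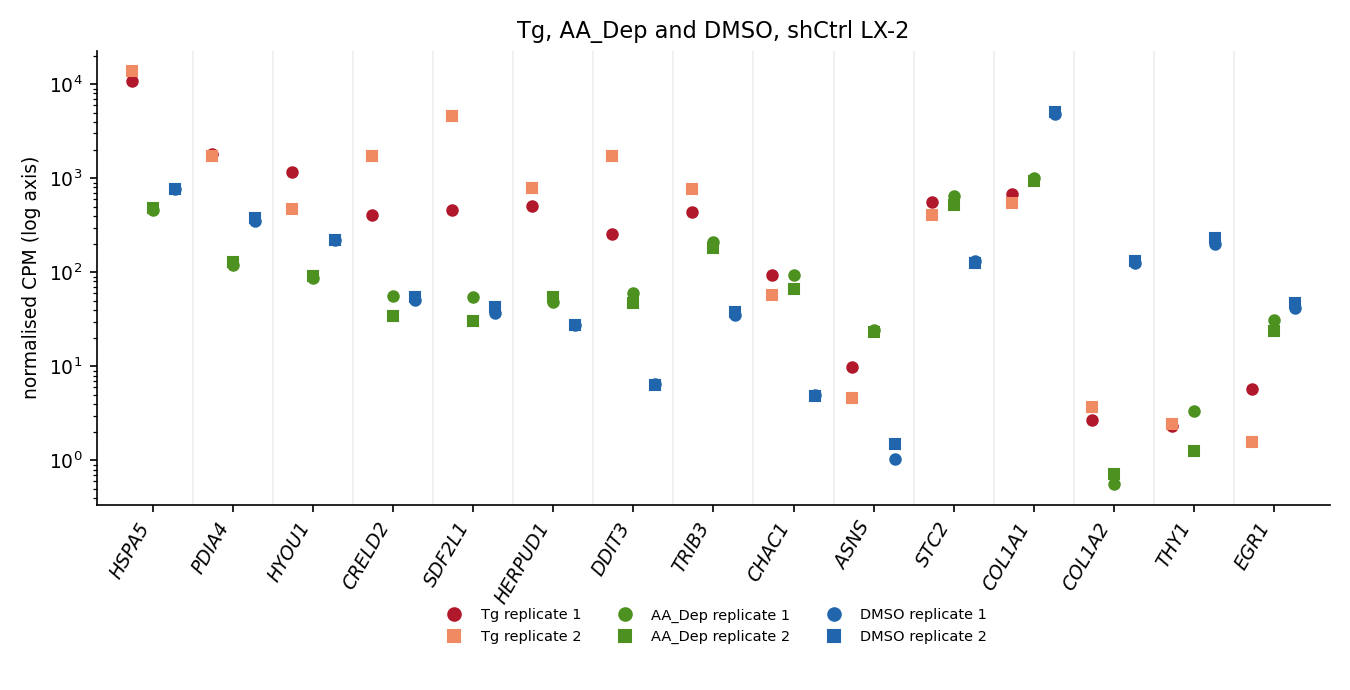
Normalised CPM (log axis) of 15 genes in shCtrl LX-2 libraries of Tg (red and orange), AA_Dep (green) and DMSO (blue), 2 libraries each (circle, replicate 1, square, replicate 2). HSPA5, PDIA4 and HYOU1 are high in Tg libraries alone and below DMSO in AA_Dep libraries, CHAC1 and STC2 reach like levels in Tg and AA_Dep libraries, and ASNS is highest in AA_Dep libraries.

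ATF4 was checked first in the knockdown cells, where it had 213 and 191 normalised CPM in shATF4 Tg libraries and 128 and 115 in shATF4 DMSO libraries, against 602 and 1340 and 219 and 240 in the shCtrl libraries. The difference between the responses (shCtrl minus shATF4) passed for 17 genes higher (0.0957%) and 31 lower (0.174%) of 17772. The number depended on the Tg library: it was 4638 and 7488 without Tg replicate 1, and 459 and 684 without Tg replicate 2. Among the genes named here that passed, MMP1 had the response furthest above that of shATF4 cells, at 414 and 698 over 13.3 and 12.5 in shCtrl cells and 279 and 284 over 85.4 and 86.0 in shATF4 cells (log2 difference 3.71, SE 0.34, adjusted p = 0.0059). SLC3A2 (1.89, SE 0.32, adjusted p = 0.046), TRIB3 (1.84, SE 0.32, adjusted p = 0.048) and SESN2 (1.67, SE 0.26, adjusted p = 0.035) also rose more in shCtrl cells. With DESeq2's size factors SLC3A2 and TRIB3 were at 0.052 and 0.06. SPP1 rose more as well (2.40, SE 0.38, adjusted p = 0.036).

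A few collagen and matrix genes fell more in shCtrl than in shATF4 cells. Of 23 collagens 2 had the lower response in shCtrl cells and 0 the higher (COL1A1 and COL1A2, median log2 difference of the list -1.13), and of 31 matrix glycoproteins and proteoglycans 3 and 0 (FBLN2, SPARC and THBS2, median -1.06), beside a median of -0.11 for all genes. COL1A1 had 1036 and 1064 normalised CPM in shATF4 Tg libraries against 2478 and 2440 in shATF4 DMSO libraries, so that its level in DMSO was lower than in shCtrl cells and its fall smaller (log2 difference -1.78, SE 0.22, adjusted p = 0.013). The differences were -2.20 for COL1A2 (SE 0.26, adjusted p = 0.013), -2.08 for SPARC (SE 0.32, adjusted p = 0.035), -2.08 for MMP2 (SE 0.21, adjusted p = 0.0086) and -1.86 for CXCL12, a stromal chemokine (SE 0.22, adjusted p = 0.013). Each of these genes was lower in shATF4 than in shCtrl DMSO libraries. HSPA5 had 6050 and 6310 in shATF4 Tg libraries against 751 and 768 in shATF4 DMSO libraries. Its difference was not called with both Tg libraries (0.98, SE 0.21, adjusted p = 0.13). It was 1.07 without Tg replicate 1 and 0.83 without Tg replicate 2. The difference for DDIT3 was 3.81 (SE 0.85, adjusted p = 0.14), and 4.55 and 1.87 in the same order. A fit with a single shCtrl Tg library holds no spread between Tg libraries, so no call on these differences between hairpins is read from it.

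In HMLE cells, 12 of 17 ER chaperones and lectins were also higher in Tg than in DMSO libraries and 0 lower (median log2 change 1.25), where 18.6% of all 17940 tested genes were higher and 18.2% lower. The difference between lines (LX-2 minus HMLE) passed for 2328 genes higher (11.3%) and 2132 lower (10.3%) of 20689, and for 4420 and 7751 without Tg replicate 1 of LX-2. HERPUD1 had 930 and 972 normalised CPM in HMLE Tg libraries against 51.2 and 55.0 in HMLE DMSO libraries. Its response was not called different (log2 difference 0.24, SE 0.17, adjusted p = 0.35). The difference was 0.45 without Tg replicate 1 of LX-2 and 0.04 without Tg replicate 2. CHAC1 gave a difference of 0.04 (SE 0.31, adjusted p = 1). HSPA5 rose more in LX-2 (0.99, SE 0.13, adjusted p = 2.9e-05), as did ATF4 (1.30, SE 0.27, adjusted p = 0.003), TRIB3 (1.59, SE 0.21, adjusted p = 3.2e-05), SLC3A2 (3.10, SE 0.21, adjusted p = 1.2e-08) and HMOX1 (2.77, SE 0.34, adjusted p = 1.3e-05).

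Cytokine genes gave lower responses in LX-2 than in HMLE cells. Of 30 tested in the fit of both lines, 18 had a lower response in LX-2 than in HMLE and 0 a higher one (median log2 difference -3.15). In the fit of LX-2 libraries 28 were tested, so genes that pass the count filter through HMLE can enter here. Within HMLE 22 of 30 rose and 1 fell (median 1.80). CXCL8, a neutrophil chemokine, had 117 and 63.5 normalised CPM in LX-2 Tg libraries against 155 and 155 in LX-2 DMSO libraries, and 127 and 141 in HMLE Tg libraries against 3.11 and 4.53 in HMLE DMSO libraries (difference -6.00, SE 0.36, adjusted p = 2.8e-09). CXCL1 (-5.44, SE 0.23, adjusted p = 4.1e-11) and IL11 (-4.52, SE 0.22, adjusted p = 1.6e-10) gave the same order. Of 23 collagens 16 had a lower response in LX-2 and 0 a higher one (median -2.57). SPARC fell to 263 and 144 in LX-2 Tg libraries, against 1490 and 1539 in LX-2 DMSO libraries, and had 203 and 186 in HMLE Tg libraries against 208 and 210 in HMLE DMSO libraries (-2.87, SE 0.28, adjusted p = 1.1e-06). TNC, tenascin C, had 229 and 72.1 against 544 and 504 in LX-2, and 602 and 502 against 103 and 97.0 in HMLE (-4.32, SE 0.47, adjusted p = 3.6e-06).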

How the data were processed

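The authors deposited 1 table of raw read counts per gene and library. The submitters' processing notes list featureCounts, STAR, Bowtie2, cutadapt, DESeq and HOMER, and the builds hg19 and hg38, without versions or roles, so which build and aligner the counts rest on is not given in the sources used here. Per the labels' protocols, the RNA came from a Qiagen RNeasy kit and the libraries from a SMARTer mRNA-Seq kit. Each LX-2 table had 452 lines with no gene name, all at 0 counts, which were left out. The 2 HMLE tables labelled shATF4 AA_Dep held identical values and were counted once.

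From the counts, edgeR 4.0.16 (R 4.3.3) was run on the 16 LX-2 libraries with filterByExpr, TMM factors and the quasi-likelihood F test, with Benjamini-Hochberg adjustment over all tested genes and a threshold of 0.05. The fit for each Tg library alone left out the other, so the lone library is assumed to vary like the other groups. Levels are TMM-normalised CPM, and a standard error was taken as the size of the log2 change divided by the root of its F value. Steps were tested on simulated data. There the libraries of all groups, Tg included, were drawn with the same small spread. The simulation thus held no Tg library as unlike the others as replicate 2, and it does not bear on calls made with both Tg libraries.

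Gene lists (34) and the comparison were chosen with earlier results of these data known. Named genes are, per list, at most 4 called members of largest change and at most 2 uncalled ones of highest level, the 12 largest rises and falls with at least 5 normalised CPM in both libraries of the higher group, and 5 genes each way with the largest ratio between Tg libraries. Outside this rule, ATF6, CHAC1, CXCL1, CXCL8, CXCL12, EIF2AK3, ERN1, FBLN2, FICD, HYOU1, IL11, LOX, PDIA6, SESN2, SYNPO, THBS2, TMEM120A and TNC, and the exceptions named in brackets beside a list's count, were chosen after their values were seen. Alternatives used DESeq2 1.42.0 and limma 3.58.1 (voom with sample weights), library totals, no count filter, a replicate block, the 4 libraries alone and each library left out. ChIP samples were not analysed here. Some genes that the rule or the lists hold are not reported here by name.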

Additional observations from a re-analysis of the deposited data

Results flagged for a closer look

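The response to Tg differed between shCtrl and shATF4 LX-2 cells, by edgeR's interaction test, for 17 genes with the higher and 31 with the lower change in shCtrl cells. Of the genes named in the text, the log2 difference was 3.71 for MMP1, 2.40 for SPP1, 1.89 for SLC3A2, 1.84 for TRIB3 and 1.67 for SESN2. It was -2.20 for COL1A2, -2.08 for SPARC, -2.08 for MMP2, -1.86 for CXCL12 and -1.78 for COL1A1.

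The response differed between LX-2 and HMLE cells for 2328 genes with the higher and 2132 with the lower change in LX-2. The log2 difference was 3.10 for SLC3A2, 2.77 for HMOX1, 1.59 for TRIB3, 1.30 for ATF4 and 0.99 for HSPA5. It was -6.00 for CXCL8, -5.44 for CXCL1, -4.52 for IL11, -4.32 for TNC and -2.87 for SPARC. In both contrasts the counts moved with the choice of Tg library, and the part of that library in these differences was not tested.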

How the results depend on the processing

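Counts of genes higher and lower in Tg than in DMSO cells (3427 and 2679) became 2032 and 1674 under library totals, 698 and 564 with voom and sample weights, and 0 and 0 in the 4 libraries alone (edgeR, 1750 at an unadjusted p under 0.05). Leaving out 1 library gave 663 to 5830 higher and 1013 to 8256 lower. The DESeq2 Wald test gave 2840 lower in Tg than in AA_Dep cells and, for shCtrl minus shATF4, 371 higher and 341 lower. This test was added after seeing the data. Leaving out a Tg library gave 2477 to 5745 higher and 2883 to 8231 lower than AA_Dep, 459 to 4638 and 684 to 7488 for shCtrl minus shATF4, and 2597 to 4420 and 3033 to 7751 for LX-2 minus HMLE. The estimated biological coefficient of variation was 57.1% in the 4 libraries alone. Over the LX-2 libraries it was 29.5% with both Tg libraries, 9.23% without Tg replicate 1 and 9.21% without Tg replicate 2.

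Leaving out a Tg library turned the sign of the log2 change of 18 of 143 named genes. The ranges were -0.44 to 1.17 for CANX, -1.22 to 1.23 for ATP2A2, -0.01 to 2.73 for BAX, -0.65 to 0.35 for VIM, -0.71 to 0.72 for PTX3, -1.89 to 0.27 for GREM1, -0.61 to 0.85 for PDIA6, -1.34 to 1.31 for EIF2AK3, -0.59 to 0.53 for ATF6, -1.53 to 0.58 for LOX, -0.65 to 0.15 for MCL1, -1.43 to 0.30 for SLC38A2, -1.32 to 0.20 for TNFRSF10B, -0.05 to 5.87 for TPGS1, -0.40 to 5.25 for CCDC85B, -0.15 to 5.41 for TMEM160, -4.72 to 0.41 for AP3M1 and -12.75 to 0.23 for PIK3C2A. Against AA_Dep they were -0.15 to 0.95 for ATF4 and -0.53 to 0.20 for CHAC1, and for LX-2 minus HMLE -0.45 to 0.42 for CHAC1. Voom turned AP3M1 (0.05), GREM1 (0.08), LOX (0.40), MCL1 (0.08), SLC38A2 (0.15) and TNFRSF10B (0.07), none of them called, and lost 34 of 125 named calls. VIM turned to 0.06 under DESeq2's size factors and its Wald test and to 0.01 in the 4 libraries alone, and ATF6 to -0.04 under library totals. The cause was not tested.

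Libraries with the same replicate number shared only a number: over 28 pairs of LX-2 groups the correlation of their deviations ran from -0.38 to 0.26, above 0.1 in 5. With the replicate number as a block, 2923 and 2469 genes were called for Tg against DMSO, 2091 and 1529 for Tg against AA_Dep, and 4 and 10 for shCtrl minus shATF4. In that last contrast SLC3A2 (adjusted p = 0.09), TRIB3 (0.085), SESN2 (0.074), SPP1 (0.076) and SPARC (0.071) no longer passed with the block. Crossing the AA_Dep numbers, added after seeing the data, gave 2435 and 1816. At 15247910 to 18729266 counts per compared library, genes of a few counts are measured poorly, the more so in Tg replicate 2, where fewer genes had counts.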
